A study of Homo sapiens with 16 samples.

Results

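The peroxisome proliferator-activated receptors and a set of genes that answer to fatty acids were followed in MCF-10A cells, a nontransformed, immortalized human breast epithelial line, after exposure to octanoic acid (OA), a medium-chain fatty acid. The group holds 9 genes, taken by name and with no threshold on a measured value, out of 20033 protein-coding genes of GENCODE 44: the receptors PPARA, PPARD and PPARG, the coactivator PPARGC1A, and ANGPTL4, PDK4, PLIN2, FABP4 and CD36. H3K4me3, a histone mark of active and poised promoters, and H3K27me3, a mark that Polycomb complexes lay down at silenced genes, were mapped by CUT&RUN, in which an antibody-tethered nuclease releases the DNA that carries the mark. For each mark 3 libraries came from cells given vehicle (PBS) and 3 from cells given 5 mM OA, both for 24 hours, from cultures seeded as biological triplicates. Untreated cells gave 2 further H3K4me3 libraries as a positive control and 2 IgG libraries as a negative control. No genetic change was added to the cells of any group, and every value describes a single line in culture.

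PPARs are nuclear receptors that bind DNA as a pair with a retinoid X receptor and use fatty acids and their derivatives as ligands. PPARA drives fatty acid oxidation in liver, PPARD does so in muscle and is widely expressed, and PPARG directs the formation of adipocytes. PPARGC1A (PGC-1α) docks on these receptors and raises mitochondrial gene expression. ANGPTL4, a secreted inhibitor of lipoprotein lipase, PDK4, a kinase that turns off pyruvate dehydrogenase and so spares glucose, and PLIN2, a coat protein of lipid droplets, are standard PPAR targets in many cell types, whereas FABP4, a fatty acid carrier, and CD36, a fatty acid transporter, are PPARG targets best known in adipocytes and macrophages.

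The authors called peaks in each library by itself, and their lists were the only data used here. A gene was assigned every merged region, called in at least 2 of the 6 vehicle and OA libraries of a mark, that lay within 3 kb of any of its annotated start sites. Its peak length is the summed length of its peaks in a library, and its rank is the percentile that its strongest peak holds, by the caller's −log10 p, among all peaks of that library, with 0 where there is no peak. OA was called above vehicle where all 3 OA libraries exceeded all 3 vehicle libraries, and 3 libraries against 3 cannot give an exact permutation p below 0.1.

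H3K4me3 lists held 16086 to 19953 peaks with vehicle and 17975 to 21033 with OA, and H3K27me3 lists held 18801 to 47648 and 9091 to 32363. Vehicle replicate 3 stood apart among the H3K4me3 libraries. The lowest background shared by many of its peaks, a measure of relative depth solved from the deposited fold and p under the caller's Poisson model, was 0.450 reads against 0.633 to 0.853 in the other vehicle and OA libraries, its median peak was 559 bp long against 736 to 1028 bp, and it had a peak at 85.4% of the 13392 genes with an H3K4me3 region, against 93.0% to 99.6%. A promoter without a call in it may still carry the mark. The lowest summit among the peaks sampled from this library held 5 reads, as in OA replicate 2. The differences at PPARA, PPARD, PPARG, ANGPTL4 and PDK4 are therefore also given without vehicle replicate 3. The depth behind the H3K27me3 lists is unknown. Breast epithelial markers had an H3K4me3 region in 8 of 8 cases, with KRT5, EGFR and ITGA6 called in all 6 libraries, CDH1, EPCAM and LAMB3 in every one but vehicle replicate 3, TP63 in 4, and KRT14 in vehicle replicates 1 and 2 alone (881 and 747 bp). Adipocyte and endothelial markers had one in 0 of 4 cases each, macrophage markers in 2 of 4 (CD14 in 6 libraries and CSF1R in 2), and the 9p21 genes CDKN2A, CDKN2B and MTAP, which MCF-10A is known to lack, in 0 of 3.

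H3K4me3 marked 6 of the 9 genes, and no H3K27me3 region at any of the 9 was called in more than a single library. PPARA, PPARD, PPARG, PPARGC1A, ANGPTL4 and PDK4 had an H3K4me3 region, a share set beside 66.8% of all protein-coding genes, while PLIN2, FABP4 and CD36 had none. A region of H3K27me3 called in at least 2 libraries was found at 13.8% of protein-coding genes and at 0 of the 9. PPARA and PPARD had an H3K4me3 peak in every vehicle and OA library, as did 84.5% of the genes with a region. PPARG, ANGPTL4 and PDK4 had one in every library but vehicle replicate 3, a pattern shared by 866 of the 13392 genes (6.47%). PPARGC1A had one near its GENCODE starts in OA replicates 1 and 3 alone. Counted by library, the vehicle replicates had a peak at 5, 5 and 2 of the 9 genes and the OA replicates at 6, 5 and 6. Over the 13392 genes the shares were 95.5%, 93% and 85.4% with vehicle and 95.8%, 97.9% and 99.6% with OA. PPARGC1A could add to the OA counts only, since its region was called in OA libraries alone.

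The promoter stretches below are shown to set base composition beside the calls. Each is 250 bases of hg38 directly upstream of the canonical start site of the gene, or, for PPARG and CD36, the nearest upstream 250 bases outside every annotated UTR, read 5′ to 3′ on the strand of the gene, with CG dinucleotides in capitals. They lie at chr3:12288588-12288837 (plus strand, 233 bp before the start) for PPARG, chr7:95596517-95596766 (minus strand) for PDK4, chr19:8363905-8364154 (plus strand) for ANGPTL4, chr9:19127493-19127742 (minus strand) for PLIN2 and chr7:80638266-80638515 (plus strand, 127 bp before the start) for CD36. The PDK4 stretch overlaps an exon of the antisense gene PDK4-AS1, and the others overlap no annotated exon. The H3K4me3 region at the ANGPTL4 start began at 8364133, so only the last bases of that stretch lie inside it.
PPARG: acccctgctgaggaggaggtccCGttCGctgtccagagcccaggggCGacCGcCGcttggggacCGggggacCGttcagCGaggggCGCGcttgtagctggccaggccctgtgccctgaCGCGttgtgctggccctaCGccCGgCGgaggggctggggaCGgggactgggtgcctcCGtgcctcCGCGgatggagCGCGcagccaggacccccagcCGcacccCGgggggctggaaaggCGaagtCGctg
PDK4: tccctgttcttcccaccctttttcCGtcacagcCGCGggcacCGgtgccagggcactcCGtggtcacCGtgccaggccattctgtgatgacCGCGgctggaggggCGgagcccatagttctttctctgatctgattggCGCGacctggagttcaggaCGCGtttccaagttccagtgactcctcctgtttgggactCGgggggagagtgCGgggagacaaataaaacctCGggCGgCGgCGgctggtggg
ANGPTL4: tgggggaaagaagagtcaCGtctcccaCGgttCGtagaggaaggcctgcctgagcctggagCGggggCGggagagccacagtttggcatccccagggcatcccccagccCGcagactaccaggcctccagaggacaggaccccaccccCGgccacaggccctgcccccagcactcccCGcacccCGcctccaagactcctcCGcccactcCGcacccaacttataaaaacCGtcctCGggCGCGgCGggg
PLIN2: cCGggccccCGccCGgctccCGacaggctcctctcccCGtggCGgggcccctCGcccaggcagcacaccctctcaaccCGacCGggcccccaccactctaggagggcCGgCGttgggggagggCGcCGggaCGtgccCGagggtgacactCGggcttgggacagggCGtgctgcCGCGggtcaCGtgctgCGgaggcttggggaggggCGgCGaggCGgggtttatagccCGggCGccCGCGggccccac
CD36: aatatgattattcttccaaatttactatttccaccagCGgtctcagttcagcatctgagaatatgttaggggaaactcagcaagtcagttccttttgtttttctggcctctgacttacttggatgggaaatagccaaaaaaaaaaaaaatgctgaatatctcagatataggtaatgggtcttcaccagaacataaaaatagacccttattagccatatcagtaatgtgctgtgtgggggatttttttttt
The stretches hold 25 CG pairs at PPARG, 19 at PDK4, 16 at ANGPTL4, 28 at PLIN2 and 1 at CD36. In the RefSeq promoter set (GRCh38.p14, 250 bases before to 50 after a start), which matched 8 of the 9 genes with 20 entries and not FABP4, the median of 35116 promoters was 58.7% GC with 14 CG pairs. PPARA stood at 85.7% GC with 52 CG pairs at its canonical start, PPARD at 70.3% with 31, ANGPTL4 at 66.3% with 20 and PDK4 at 60.7% with 21. PPARG stood lower at its canonical start, at 54.7% with 9, under the median of all promoters although marked, and the CG-dense stretch printed for it lies further upstream. The 2 PPARGC1A entries, with 42 and 4 CG pairs, overlapped no H3K4me3 region assigned to the gene, and neither is its canonical start. The first starts at chr4:24472905, beyond the GENCODE starts used here, and regions near it were not assigned to the gene. The 6 CD36 entries stood at 35.0% to 43.7% with 1 to 3 CG pairs. PLIN2, which had no H3K4me3 peak, stood at 76.7% with 36 CG pairs, above the promoters of PDK4 and ANGPTL4, which had one.

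Of the 6 genes with a region, OA was above vehicle in H3K4me3 peak length at 3, PPARG, ANGPTL4 and PDK4, and below at 0. PLIN2, FABP4 and CD36 had no region and could not be called. Over all 13392 genes with a region, 9.33% were above and 0.306% below. In rank, OA was above vehicle at PPARG alone of the 6, beside 11.3% of all genes with a region, and below at 0, beside 6.39%. PPARG was above on both measures, as were 3.49% of all genes. Among the 866 genes with the calls that PPARG, ANGPTL4 and PDK4 share, missing from vehicle replicate 3 alone, 26.2% were above in length and 21.6% in rank. Without vehicle replicate 3 the counts were 3 genes in length (PPARG, ANGPTL4 and PDK4, beside 9.37% of genes) and 1 in rank (PPARG, beside 13.3%). These genes could not drop out, since vehicle replicate 3 had no peak at them and their highest vehicle value was unchanged. Over all genes the median difference, OA minus vehicle, was 139.8 bp and 2.5 percentile points, with a higher mean length in OA at 77.1% of genes. That balance rested on vehicle replicate 3: without it the medians were −28.7 bp and 0.2 points, 44.2% of genes had a higher mean length in OA, and 14.9% were below vehicle in length, more than the share above. The medians without it were added after seeing the data. No two-sided exact permutation p can fall below 0.1 here, so none of the 13392 genes could do so after Benjamini-Hochberg adjustment. The lowest adjusted p was 1 for length and 0.565 for rank. At an unadjusted p of 0.1, the smallest the design allows, there were 1291 genes in length and 2369 in rank, of all 13392.

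**Figure D1:**
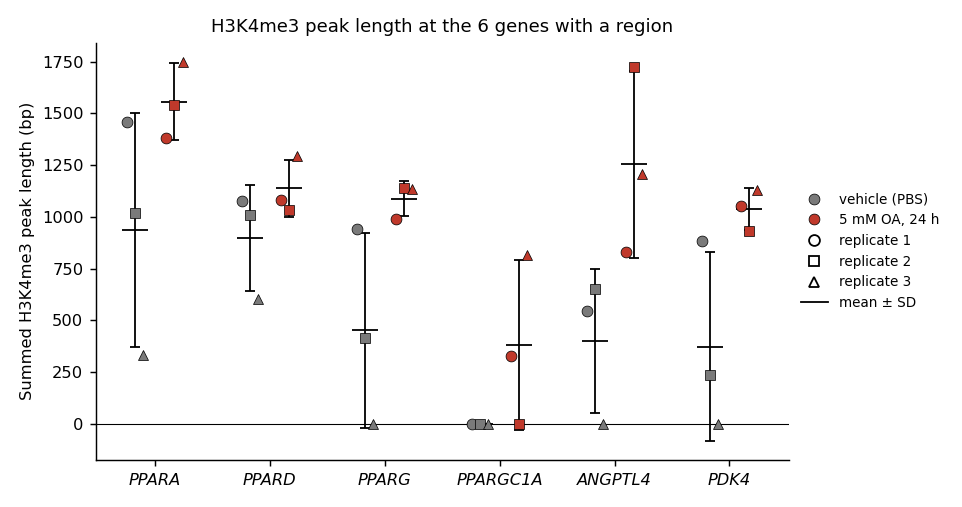
Summed H3K4me3 peak length (bp, y axis) of the 6 genes with a region in each vehicle (grey) and OA (red) library, with symbols for replicates and bars for the mean ± SD (n = 3). The 3 OA libraries lie above the 3 vehicle libraries at PPARG, ANGPTL4 and PDK4, where vehicle replicate 3 is at 0, and the groups overlap at PPARA, PPARD and PPARGC1A.

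PPARG was the receptor whose promoter separated the groups. Its region, chr3:12287982-12289154 of hg38, spanned 1173 bp, covered 8 of its 31 annotated start sites and held the first canonical exon (12289070 to 12289134) at its downstream end. The peak length was 939, 415 and 0 bp in vehicle replicates 1, 2 and 3 and 990, 1137 and 1135 bp in OA replicates 1, 2 and 3. The longest vehicle peak was shorter than the shortest OA peak, so the groups did not overlap, by a small margin. The means were 451 ± 471 bp in vehicle and 1087 ± 84.3 bp in OA (SD, n = 3 each), a difference of 636 bp (two-sided exact permutation test, p = 0.1, adjusted p = 1). The rank was at percentile 35.1, 11.5 and 0 in vehicle against 49.7, 41.3 and 64.3 in OA. Means of 15.5 ± 17.9 and 51.8 ± 11.6 (SD, n = 3) differed by 36.3 percentile points (exact permutation p = 0.1, adjusted p = 0.565), a difference larger than that of 98.2% of genes.

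The PPARG peak stood 6.97-fold over local background in vehicle replicate 1, 5.93-fold in vehicle replicate 2, and 7.69-, 10.6- and 10.8-fold in OA replicates 1, 2 and 3. Solved from these folds and their p-values, the summits held 21 and 10 reads in vehicle replicates 1 and 2 against 25, 38 and 73 with OA, none of them scaled for depth. The CG-dense stretch printed above lies inside the OA peaks of all 3 replicates and inside the peak of vehicle replicate 1, and beyond the end of the peak of vehicle replicate 2. In OA the peaks reached the canonical start site, ending at 12289070, 12289118 and 12289154, while in vehicle they ended at 12288932 and 12288537, upstream of it. Without vehicle replicate 3 the differences were 410 bp and 28.5 percentile points. Leaving out a vehicle library without a peak cannot undo the separation.

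Vehicle replicate 1 had a second PPARG peak of 245 bp, at chr3:12287493-12287737, called in no other library and so outside the merged regions. When regions of any library were kept, it raised vehicle replicate 1 to 1184 bp, above the 3 OA libraries, and the groups then overlapped in length but not in rank. The start site of the adipocyte isoform PPARG2 (transcript PPARG-201, at 12351472), which lies far downstream, had no H3K4me3 peak in any library, the nearest being 62318 to 132867 bp away in the vehicle and OA libraries.

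PPARA and PPARD were each called throughout, and their groups overlapped on both measures. The PPARA region, chr22:46149943-46151734, covered 5 of 11 start sites and the first exon of the canonical transcript (46150526 to 46150652). Its peak length was 1457, 1017 and 334 bp with vehicle and 1382, 1539 and 1750 bp with OA, with OA replicate 1 below vehicle replicate 1. The difference of 621 bp (exact permutation p = 0.2, adjusted p = 1) was larger than that of 92.5% of genes, and without vehicle replicate 3, the lowest library, it was 320 bp. The rank was at 65.2, 54.9 and 23.7 in vehicle against 47.7, 70.5 and 62.5 in OA, a difference of 12.3 points (p = 0.6 by the same exact test) that came to 0.172 points without vehicle replicate 3. In OA replicates 1 and 2 the mark formed a second, weaker peak upstream of the start, of 304 and 309 bp, which OA replicate 3 joined to the main one.

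The PPARD region, chr6:35342323-35343663, covered both start sites of the gene and its first canonical exon (35342558 to 35342681). The peak length was 1077, 1009 and 604 bp with vehicle and 1083, 1034 and 1295 bp with OA, and the difference of 241 bp was within the spread of the libraries (897 ± 256 bp and 1137 ± 139 bp, SD, n = 3, exact permutation p = 0.2), and was 94.3 bp without vehicle replicate 3. The rank was at 74.8, 63.2 and 48.1 in vehicle against 66.5, 51.5 and 55.9 in OA. PPARD was thus the only member of the 6 with a lower mean rank in OA, by −4.08 points (exact permutation p = 0.7), and by −11 without vehicle replicate 3, a sign that turned when vehicle replicate 1 was left out (2.31). Its folds of 9.03 to 15.5 in vehicle against 8.24 to 11.3 in OA overlapped as well.

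By mean rank in vehicle, PPARD came first at 62.0, then PPARA at 47.9, ANGPTL4 at 28.7, PDK4 at 16.5, PPARG at 15.5 and PPARGC1A at 0. In OA the order was PPARA at 60.2, ANGPTL4 at 58.8, PPARD at 57.9, PPARG at 51.8, PDK4 at 49.8 and PPARGC1A at 8.83. The first 5 OA means carried SDs of 7.70 to 17.1 (n = 3) and the vehicle means SDs of 13.4 to 24.9 apart from PPARGC1A. The libraries of neighbours in either order overlapped, apart from those of PPARGC1A in OA, which all lay below those of PDK4.

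**Figure D2:**
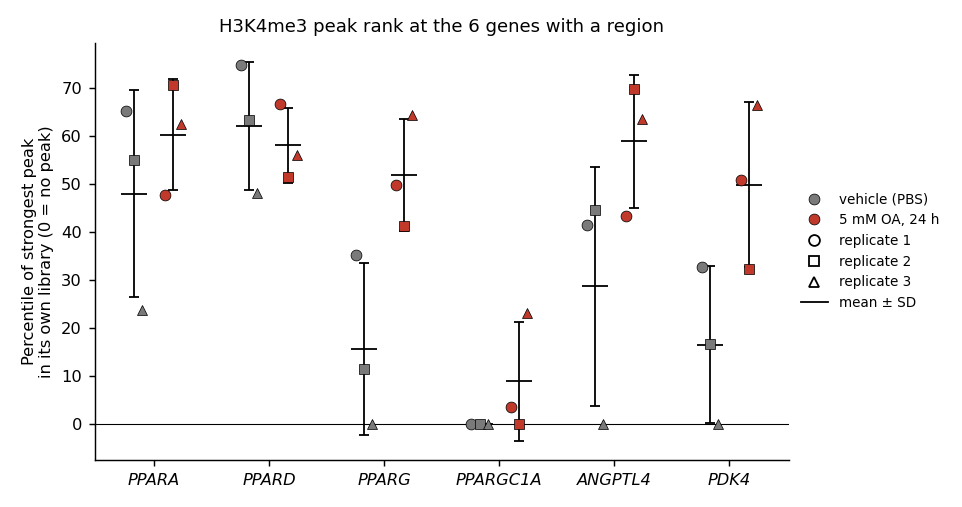
Percentile of the strongest H3K4me3 peak among all peaks of its library (y axis, 0 for no peak) for the same 6 genes, vehicle in grey and OA in red, with the mean ± SD (n = 3). Only at PPARG do the OA libraries (41.3 to 64.3) all lie above the vehicle libraries (0 to 35.1), and at PDK4 OA replicate 2 (32.2) lies just under vehicle replicate 1 (32.7).

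PPARGC1A, the coactivator, had its merged region off the start site. The region, chr4:23888547-23889364, lay 683 bp downstream of the canonical start at 23890047 (minus strand), in the first intron. Its peak length was 0 bp in all 3 vehicle libraries and 327, 0 and 818 bp in OA. The OA peaks were weak, at percentile 3.5 and 23, with folds of 3.99 and 5.35, and the difference of 382 bp had an exact permutation p of 0.4. At a region called in at least 2 OA libraries and no vehicle library PPARGC1A joined 7.70% of the 18734 merged regions, and it entered the set of genes with a region through OA libraries alone. That holds for the GENCODE starts used here. Within 3 kb of a RefSeq start further upstream (chr4:24472905), vehicle replicates 1 and 2 and OA replicate 2 had H3K4me3 peaks. The other libraries were not searched there. OA replicate 3 also had a peak on the canonical start site itself, chr4:23889626-23890300, of 675 bp at percentile 26.5, seen in no other library. The H3K27me3 lists had single-library peaks on or near the canonical start. One of 220 bp in vehicle replicate 3, chr4:23889822-23890041, held 3 start sites, and one of 297 bp in vehicle replicate 2, chr4:23890761-23891057, ranked at percentile 92.4. No OA library had an H3K27me3 peak within 3 kb of a GENCODE start of PPARGC1A. The OA lists held 9091 to 32363 H3K27me3 peaks against 18801 to 47648 with vehicle, and a link between the marks was not tested.

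At ANGPTL4, OA libraries had peaks further into the gene than vehicle libraries. The promoter region, chr19:8364133-8365395, covered 5 of 8 start sites and the first exon (8364155 to 8364639). A second region, chr19:8365696-8366458, began 1541 bp downstream of the canonical start, overlapped exons 2 and 3 (8365954 to 8366064 and 8366202 to 8366319) and the introns around them, and was called in all 3 OA and 0 of 3 vehicle libraries, as were 1.84% of the 18734 merged H3K4me3 regions. Summed over both, the peak length was 547, 649 and 0 bp with vehicle against 828, 1725 and 1207 bp with OA. The lowest OA library was 828 bp against 649 bp for the highest vehicle library. The difference of 855 bp between 399 ± 349 bp and 1253 ± 450 bp (SD, n = 3, exact permutation p = 0.1, adjusted p = 1) was above that of 97.1% of all genes, and without vehicle replicate 3 it was 655 bp. It was the largest of the 6 genes, but not with a window of 1 kb (460 bp) or without OA replicate 2 (500 bp), where PPARA, PPARG and PDK4 had 621 to 665 bp and 611 to 717 bp. In rank the groups overlapped, at 41.5, 44.5 and 0 in vehicle against 43.3, 69.7 and 63.4 in OA (a difference of 30.1 points, exact permutation p = 0.2, and 15.8 without vehicle replicate 3).

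The separation in ANGPTL4 length rested on the downstream peaks. OA replicate 1 had 461 bp at the promoter, less than either vehicle replicate 1 or 2, and 367 bp in the second region. With a window of 1 kb, which leaves out the second region, its 461 bp fell under the 649 bp of vehicle replicate 2 and the groups overlapped. The downstream peaks were weak, at percentiles 4.4 to 20.1 with folds of 2.64 to 3.64, but rested on 22 to 45 reads each. Local background at ANGPTL4 was 12.5 and 11.5 reads in OA replicates 2 and 3 and 5.39 in OA replicate 1, against 4.26 and 4.59 in vehicle replicates 1 and 2, and its part in the calls was not tested. The promoter peak itself had folds of 6.46 and 10.2 in vehicle against 5.32, 8.10 and 7.60 in OA.

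PDK4 had its H3K4me3 calls in the same libraries as PPARG, apart from the untreated ones. Its region, chr7:95595797-95596927 on the minus strand, covered the first exon (95596164 to 95596516), the canonical start at 95596516 and the start of the antisense gene PDK4-AS1, and CUT&RUN does not tell which of the pair a mark belongs to. The peak length was 882, 238 and 0 bp with vehicle against 1050, 933 and 1131 bp with OA. All 3 OA libraries lay close together and above vehicle, where the libraries spread from 0 to 882 bp. Means of 373 ± 456 bp and 1038 ± 99.5 bp (SD, n = 3) differed by 665 bp (exact permutation p = 0.1, adjusted p = 1), and by 478 bp without vehicle replicate 3. In vehicle replicate 2 the peak was limited to the upstream side of the start, whereas in vehicle replicate 1 and all OA libraries it ran into the first exon. The rank was at 32.7, 16.6 and 0 in vehicle against 50.8, 32.2 and 66.4 in OA. OA replicate 2 and vehicle replicate 1 were almost level, so the groups overlapped (difference 33.4, exact permutation p = 0.2, and 25.1 without vehicle replicate 3). Summits held 17 and 11 reads with vehicle and 28, 26 and 71 with OA, with folds of 7.32 and 6.76 and of 7.12, 9.49 and 11.9.

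**Figure D3:**
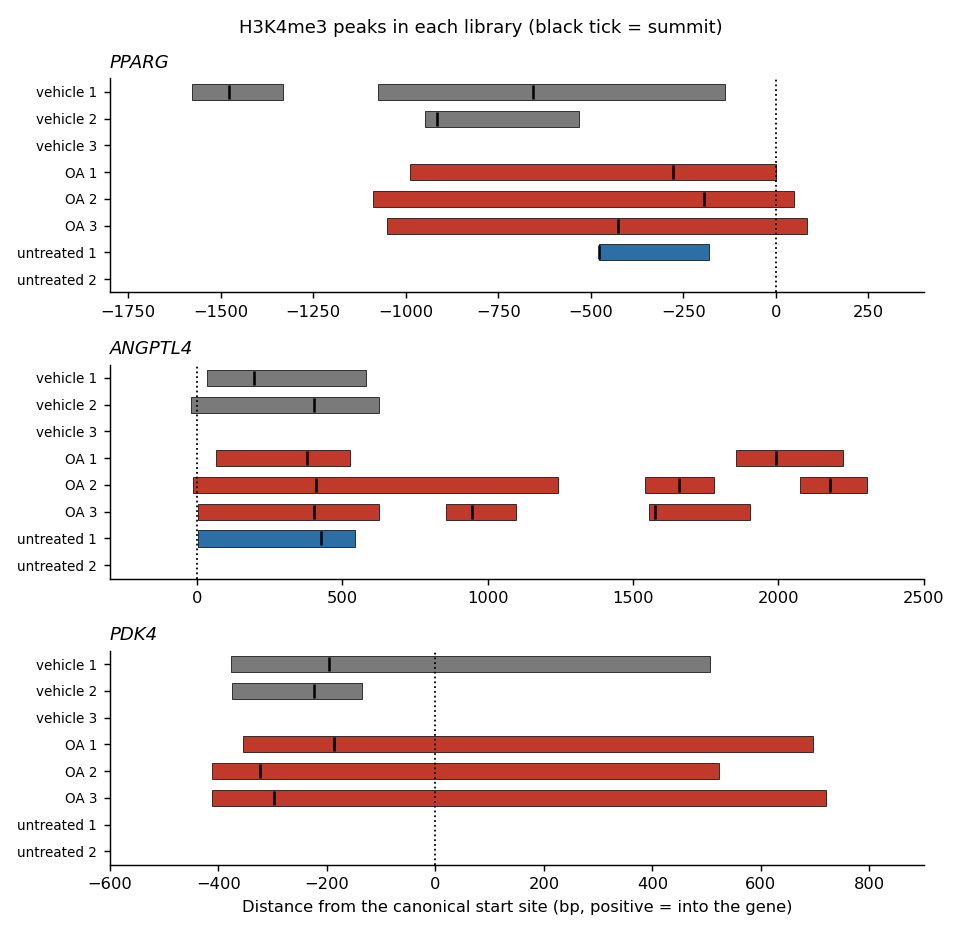
H3K4me3 peaks of PPARG, ANGPTL4 and PDK4 in the vehicle (grey), OA (red) and untreated (blue) libraries, as distance from the canonical start site in bp (x axis, positive into the gene), with summits as black ticks. OA peaks of PPARG reach the start site, ANGPTL4 has peaks from 1541 bp onward in the 3 OA libraries alone, and vehicle replicate 3 has no peak at any of the 3 genes.

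Measured by rank over all 8 H3K4me3 libraries, untreated ones included, the genes most like PPARG among the 13392 were METRNL, PDK4 and LAMP3, with mean absolute differences of 2.93, 3.26 and 3.37 percentile points. METRNL, which encodes a secreted protein, stood at 31.3, 16.9 and 0 in vehicle against 44.1, 41.6 and 62.4 in OA. LAMP3, a lysosomal membrane protein, stood at 44.7, 7.0 and 0 in vehicle against 56.0, 41.3 and 64.7 in OA. PDK4 was thus the second closest gene to PPARG.

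**Figure D4:**
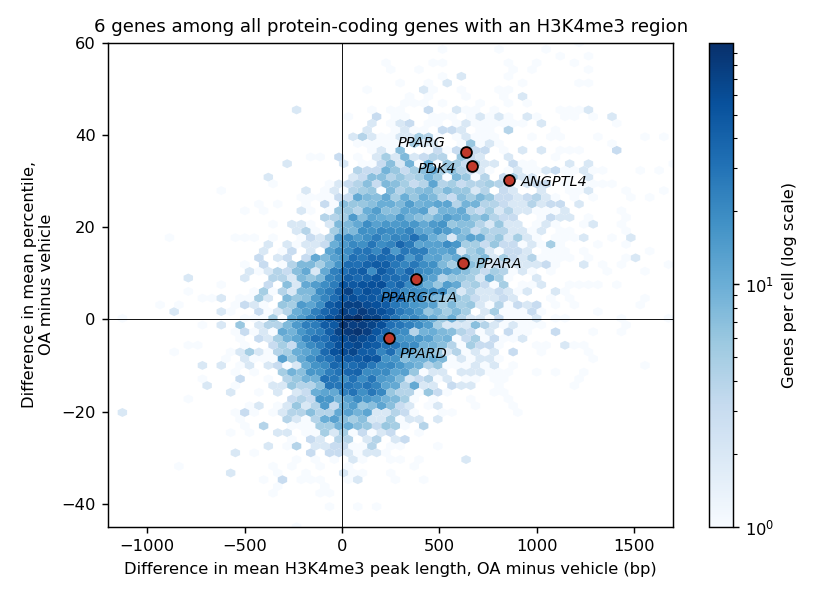
Difference in mean H3K4me3 peak length (bp, x axis) against difference in mean rank percentile (y axis), OA minus vehicle, for the 13392 genes with a region (blue shading, genes per cell on a log scale, 26 genes outside the axes) and 6 genes of the group (red). PPARG, PDK4 and ANGPTL4 lie at the upper right, at 636 to 855 bp and 30.1 to 36.3 points, and PPARD lies near the centre of the cloud.

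PLIN2, FABP4 and CD36 had no H3K4me3 peak within 3 kb of any of their 7, 3 and 20 start sites in any of the vehicle, OA or untreated libraries. PLIN2 (chr9:19108375-19149290, canonical start 19127492) has a CG-rich promoter, printed above, and the nearest peak lay 15350 to 15472 bp from one of its starts, in a region at HAUS6 called in all 6 libraries. The call was thus absent at PLIN2 and present at its neighbour in the same libraries. FABP4 lay 197940 to 198165 bp from the nearest peak, in a region called in all 6 libraries at FABP5, its paralog, known as the epidermal fatty acid carrier. CD36 lay 57064 to 233377 bp from the nearest. Regions of neither mark, in any vehicle or OA library, were the state of PLIN2, FABP4 and CD36 and of 16.2% of protein-coding genes.

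No H3K27me3 region at any of the 9 genes was called in more than 1 library. Besides PPARGC1A, single-library peaks lay near internal start sites of PPARG. They measured 592 bp in vehicle replicate 3 (chr3:12374290-12374881) and 165 and 389 bp in OA replicate 2 (chr3:12373933-12374097 and chr3:12424811-12425199), at percentiles 13.7, 67.2 and 1.3, and at least 84863 bp from the canonical start. A peak of a single library or more was found at 25.3% of protein-coding genes and at 2 of the 9. OA was above vehicle at 0 of the 9 and below at 0, since none had a region, while over the 2762 genes with one it was above at 0.543% and below at 11.2% in length, and above at 1.09% and below at 9.59% in rank. The PPARG promoter region had no H3K27me3 peak in either group, nor did those of ANGPTL4 and PDK4, whose nearest H3K27me3 peaks lay 11335 to 29337 bp and 25878 to 79568 bp away.

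The PPAR response element is a direct repeat of the hexamer AGGTCA with 1 base between. The exact repeat (AGGTCA, any base, AGGTCA) and a relaxed form (AGGNCA, any base, AGGNCA, with N for any base), which includes the first, were searched on both strands. They occurred in 0.0747% and 0.694% of 18734 windows of 1000 bp at H3K4me3 summits and in 0.0228% and 0.31% of the RefSeq promoters. None of the merged regions of the 6 genes held either. Within 3 kb of all start sites of the 9 genes there was 1 relaxed match, AGGACAAAGGTCA at chr4:23891927-23891939 on the plus strand, 1886 bp upstream of the canonical PPARGC1A start and outside any region.

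The wider pathway was covered by 65 genes in lists of partner receptors, coregulators, oxidation, uptake, lipid droplet and uncoupling targets, paralogs of ANGPTL4 and PDK4, and fatty acid receptors. Of these 40 had an H3K4me3 region and 37 were called in all 6 libraries. Of those 40, OA was above vehicle in length at 5 and below at 0, beside 9.33% and 0.306% of all genes with a region. The median difference was 183.0 bp beside the 139.8 bp over all genes that rested on vehicle replicate 3. In rank OA was above at 3 and below at 6 of the 40, beside 11.3% and 6.39% of all genes. The median rank difference was −1.7 points beside 2.5. The coregulators, the proteins that PPARs recruit, had a region in 11 of 11 cases. OA was below vehicle in rank at 2 of the coregulators, beside the same 6.39%. Fatty acid oxidation targets had a region in 10 of 12 cases, with 1 above in length. Lipid droplet and adipocyte targets had one in 3 of 12, with 1 above, both beside the same 9.33%. The 4 genes above in length besides VLDLR, named after their values were seen, were CPT2, the inner membrane carnitine palmitoyltransferase, ACSL1, an acyl-CoA synthetase, PNPLA2, the adipose triglyceride lipase, and TXNIP, a restraint on glucose uptake. All 4 overlapped in rank. The 6 genes below in rank, named in the same way, were NR1H3, NCOA2, MED1, ACAA2, ACSL3 and PDK3. Those above in rank besides VLDLR were SLC25A20 and SLC27A4. All of these overlapped in length.

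VLDLR, a receptor that takes up triglyceride-rich lipoproteins, alone of the pathway lists was above vehicle on both measures, beside 3.49% of all genes. Its H3K4me3 region, chr9:2621200-2623128, had 700, 650 and 158 bp with vehicle and 1110, 1886 and 1929 bp with OA, at percentiles 31.5, 16.9 and 26.4 against 64.1, 62.4 and 85.7. The OA libraries were all higher by a wide margin, with differences of 1139 bp and 45.8 points (exact permutation p = 0.1 for each, adjusted p = 1 and 0.565). Its H3K27me3 region, chr9:2622608-2623643, overlapped the end of the H3K4me3 region inside the gene. It had 464, 651 and 978 bp in vehicle and 0 bp in all 3 OA libraries (exact permutation p = 0.1, adjusted p = 0.847). The vehicle peaks stood at percentiles 29.1, 0.0 and 50.1, where the 0.0 is a called peak at the foot of its list. OA replicate 3 had the shortest H3K27me3 list. VLDLR was thus among the 11.2% of genes with an H3K27me3 region that were below in length. None of the 9 genes of the group had such a region to compare.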

How the data were processed

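CUT&RUN peak lists of 16 libraries were used. The authors called H3K4me3 and IgG narrow peaks with MACS2 2.2.7.1 (q of at most 0.01). For H3K27me3 the methods name SICER2, while the deposited lists have the MACS2 broadPeak layout (q of at most 0.1). The aligner, the treatment of duplicates and the use of a control are not given in the sources used here, and the submitters' processing notes name hg38, whose chromosome lengths all peaks fit. The deposited column 7 is a fold ratio over local background, columns 8 and 9 are −log10 p and −log10 q, and column 5 is a score that was not used. None is scaled between libraries, so fold and p move with depth and ranks were taken within a library. No read totals were used. Depth was gauged from the background solved from fold and p of narrow peaks, which holds only if no control set it.

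Peaks on other contigs were left out. Peaks of a mark were merged at 1 bp overlap over the 6 vehicle and OA libraries, and regions of at least 2 libraries within 3 kb of a GENCODE 44 start site were assigned to genes. Groups came from the labels. Two-sided exact permutation tests ran on all genes with Benjamini-Hochberg adjustment. DiffBind, named in the methods, needs reads. Code was tested on simulated data. The 9 genes and all lists were chosen with earlier results of these data known. List genes were named where length and rank both separated the groups in the same direction. Those of the pathway lists that separated in H3K4me3 on a single measure were named after their values were seen. For a gene of the group that separated on both measures, the 3 most alike by rank were named. Tools were Python 3.11.15 with scipy 1.17.1, numpy 2.4.6 and, for figures, matplotlib 3.10.9.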

Additional observations from a re-analysis of the deposited data

Results flagged for a closer look

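The untreated H3K4me3 libraries, made as a positive control and used in no comparison between vehicle and OA, had peaks in the regions of 4 of the 9 genes, where the IgG libraries had 0 peaks. PPARA was called in 2 of the 2 untreated libraries (661 and 545 bp) and PPARD in 2 (993 and 398 bp). PPARG was called in 1, with 296 bp at percentile 6.4, and ANGPTL4 in 1, with 542 bp at percentile 15.4, both in replicate 1. PPARGC1A and PDK4 had no peak in either. The second ANGPTL4 region had none either. The untreated lists held 11242 and 12924 peaks, fewer than any vehicle or OA list, and were not tested against them.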

How the results depend on the processing

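The count of genes with a longer H3K4me3 peak in OA, 3, ranged from 3 to 5 with a replicate left out: 5 without vehicle replicate 1 (PPARA and PPARD joined) and 5 without OA replicate 2 (PPARD and PPARGC1A joined). The share of all genes with a region was then 18.2% and 12.8%, against 9.33%. It ran from 9.37% to 33.6% over the omissions. The highest share came without OA replicate 1, where 4 genes of the group were above (PPARA joined). The count in rank, 1, was 2 at a q of at most 1e-05, 2 with equal numbers of peaks (PDK4 joined in both) and 1 to 3 with a replicate left out, beside 12.3%, 10.8% and 13.3% to 26.0% of all genes, against 11.3%. PPARG was above in rank under 14 of 14 alternatives and in length under 13 of 14. PDK4 was above in length under 14 of 14 and in rank under 5. ANGPTL4 was above in length under 11, the exceptions being equal numbers of peaks, the 1 kb window and a peak covering at least 50% of the region, and in rank under 3. Leaving out a replicate, or pairing libraries by replicate number (the replicate block below), cannot undo a separation already present. Under those alternatives PPARG on both measures, and ANGPTL4 and PDK4 in length, were above by construction. The lowest counts of 3 and 1 with a replicate left out were therefore fixed in advance. The PPARD rank difference of −4.08 points turned to 12 when peaks had to cover at least 50% of a region and ranged from −11 to 2.31 with a replicate left out (2.31 without vehicle replicate 1), and the cause was not tested. H3K27me3 counts were 0 throughout, also with peaks within 5 kb joined. Only with regions of any library did genes of the group, PPARG and PPARGC1A, have a region to compare. Under the other settings a count of 0 was fixed in advance. At a q of at most 1e-05 only 10 protein-coding genes kept an H3K27me3 region.

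Deviations from the group mean had r of 0.16, 0.12 and −0.13 over genes for H3K4me3 between same-numbered vehicle and OA libraries. Different-numbered ones had r of −0.35 to 0.24. The labels give replicate numbers alone, and these values cannot tell whether same-numbered libraries were prepared together. With the replicate block, 4 genes were above in length in every pair and 3 in rank (PPARG, ANGPTL4 and PDK4), beside 13.6% and 19.6% of all genes, and 3 pairs cannot give a p below 0.25. Vehicle replicate 3 had the lowest shared background of the vehicle and OA H3K4me3 libraries (0.450 reads), and the part of depth in its absent calls was not tested. The untreated libraries had a higher background (0.941 and 0.947) with fewer peaks. No depth could be had for H3K27me3.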
